A study of Mus musculus with 16 samples.

Results

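The response of colonic epithelial cells to dextran sulfate sodium (DSS) was examined in mice that had received secretory IgA (SIgA) passively in their mother's milk and could not transport their own. These were the arrays whose titles named passive SIgA as positive and active SIgA as negative, 4 of the 16 in the series. All 4 carried RNA of Pigr-/- offspring of Pigr+/- dams on a C57BL/6 background, 70 days old and matched for gender. In 2 arrays the mice were untreated, and in the other 2 they had drunk 2% DSS for 8 days. Each group held 6 mice, and RNA of 3 was pooled for each array, so that n = 2 pools per group throughout. Every mouse of these 4 arrays thus shared the loss of Pigr and the exposure to maternal SIgA, and the array pair contrasted DSS alone. The remaining 12 arrays formed 3 further pairs of groups with the same ages, strain, DSS course and pooling. Neither SIgA source was present in Pigr-/- offspring of Pigr-/- dams, active SIgA only in Pigr+/- offspring of Pigr-/- dams, and both in Pigr+/- offspring of Pigr+/- dams.

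Pigr encodes the polymeric immunoglobulin receptor, which carries dimeric IgA from the base of an epithelial cell to the gut lumen and is cleaved there to release the antibody as SIgA. A Pigr-/- pup can swallow SIgA from a dam that makes it, but after weaning its own lumen receives none by this route. DSS is a sulfated polysaccharide that is toxic to the colonic lining. It brings bacteria into contact with the epithelium, draws in neutrophils and monocytes, and sets off repair from the crypts.

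Values were log2 intensities from a whole-transcript array, and 19938 genes were tested. Array medians ran from 6.68 to 6.74 in the 4 arrays, and the replicates correlated at 0.995 in either group. Pigr, the targeted gene, stood at 11.61 and 11.43 untreated and at 11.34 and 11.39 after DSS, below the 12.18 to 12.46 of the 8 arrays of Pigr+/- offspring. The remaining Pigr-/- arrays stood at 11.48 to 11.70, so signal remained in every Pigr-/- array. The labelled cell type was borne out by its markers: 15 epithelial identity genes averaged 12.28 and 12.26 untreated and 12.23 and 12.33 after DSS, and 0 of the 15 passed the test by limma. Some comparison arrays stood apart. In the untreated group with both SIgA sources, 1285 chemosensory receptor and keratin-associated genes, which the colon is not known to use, averaged 5.25 and 5.41, against 4.48 to 4.66 in the 4 arrays described here and 4.45 to 4.87 in the other 10. The 4.87 belonged to replicate 1 of the untreated group with active SIgA only, which also had the highest array median (6.83) and correlated at 0.986 with its replicate, the lowest of the 8 groups. Pools differed in Y-linked signal, with Uty at 6.52 and 7.98 untreated and at 8.15 and 7.32 after DSS.

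The first comparison asked what DSS changed in these mice. The colon gained transcripts of bacterial defence and of neutrophil recruitment and lost some transcripts of mature colonocytes. By limma with Benjamini-Hochberg adjustment over all genes, 394 genes passed at an adjusted p under 0.05, which is 1.98% of those tested. Of these, 178 were higher after DSS (0.893%) and 216 lower (1.08%). A change of at least 2-fold was seen in 130 of the 394, 70 of them rises and 60 falls, and 162 passed at an adjusted p under 0.01. In all 394 the 2 DSS arrays lay on one side of the 2 untreated arrays, which 24.3% of all genes tested did upward and 18.7% downward. The count rested on 4 arrays: it was 135 without untreated replicate 1, 107 without untreated replicate 2, 126 without DSS replicate 1 and 186 without DSS replicate 2. Of the 1285 receptor and keratin-associated genes, 2 passed. An exact permutation test of 2 pools against 2 cannot go below p = 0.333, and the limma p-values therefore lean on the spread of all 16 arrays. They measure the spread between pools of mice.

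Clca4b, of the family of calcium-activated chloride channel regulators, had the largest rise. It stood at 8.14 and 7.78 in the untreated pools and at 11.83 and 11.92 after DSS, a log2 difference of 3.91 ± 0.30 (SE, limma adjusted p = 5.9e-05) or 15.1-fold. The pools of either group lay close together and far from the other group. Clca4b has a close relative in Clca4a, and the array need not tell the pair apart.

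Antibacterial genes were prominent among the rises. Reg3b, a secreted lectin that binds bacterial cell walls, stood at 10.80 and 11.14 untreated and at 12.60 and 13.40 after DSS (2.02 ± 0.23, limma adjusted p = 0.000656). Its near copy Reg3g went from 9.89 and 10.71 to 11.79 and 12.84 (2.01 ± 0.36, limma adjusted p = 0.00995), with wider gaps between pools. The probes may not separate these near copies from each other. Nos2, which makes nitric oxide, rose from 7.72 and 7.56 to 9.66 and 9.53 (1.95 ± 0.15), and its pools agreed closely. Pla2g2a, a secreted phospholipase that attacks bacterial membranes, rose from 7.25 and 7.31 to 9.21 and 9.20 (1.93 ± 0.16). Slpi, a secreted protease inhibitor, stood at 6.79 and 6.72 untreated and at 9.02 and 8.37 after DSS (1.94 ± 0.18). Lcn2, which binds bacterial siderophores, rose from 5.86 and 5.69 to 8.21 and 7.08 (1.87 ± 0.29), most in DSS replicate 1. Wfdc18, a whey acidic protein family member, rose by 2.34 ± 0.21, and the oxidase Duox2 and its maturation factor Duoxa2 rose by 1.30 ± 0.24 and 1.76 ± 0.24. Lrg1, a leucine-rich glycoprotein of the acute phase, rose from 5.86 and 5.29 to 7.89 and 8.73 (2.74 ± 0.34). Lbp, the lipopolysaccharide binding protein, rose from 6.83 and 6.69 to 8.92 and 8.63 (2.02 ± 0.24). Among the 30 genes of the antimicrobial defence list, 10 rose and 1 fell, against 0.893% and 1.08% of all genes. The fall was Wfdc2, a whey acidic protein as well, at -0.71 ± 0.14. The median of the list was 0.34, against 0.03 for all genes. Between 8 and 9 of its members passed when any 1 of the 4 arrays was omitted, and Reg3g did not pass without untreated replicate 1 or DSS replicate 2.

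Signals that call in myeloid cells rose with them. Ccl3, a chemokine for monocytes and other leukocytes, stood at 6.56 and 6.52 untreated and at 9.62 and 8.82 after DSS (2.68 ± 0.27, limma adjusted p = 0.000248). Il1f9, which encodes interleukin 36 gamma, rose from 4.70 and 4.93 to 7.98 and 7.09 (2.72 ± 0.35). The untreated values of Il1f9 lay under the 95th percentile of the chemosensory receptor and keratin-associated genes, 6.09 to 6.42 in these arrays, where the array hardly separates signal from background. Cxcl2, which attracts neutrophils, rose from 7.48 and 7.52 to 9.81 and 9.62 (2.21 ± 0.20, limma adjusted p = 8.8e-05). Ccl20, a chemokine for dendritic cells and lymphocytes, stood at 8.85 and 8.86 untreated and at 11.14 and 10.18 after DSS (1.80 ± 0.24). The interleukin 1 genes Il1b and Il1a rose by 1.84 ± 0.32 and 1.54 ± 0.28. DSS replicate 1 was the higher of the DSS pools for every gene of this paragraph. Of 32 cytokines and chemokines, these 6 rose and none fell, with a list median of 0.25; 4 to 5 were left without any 1 array.

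The promoter of Cxcl2 is shown because NF-kB, the inflammatory transcription factor, is known to act on chemokine genes of this kind. Among RefSeq promoter windows of GRCm38.p6, from 250 bases before to 50 after a transcription start, 13 of the 15 genes with the largest rises were found, with 14 windows. The letters GGNNTTTCC, a form of the NF-kB motif, were searched on both strands. They occurred in 3 of these 14 windows (Acod1, Cxcl2 and Reg3g), in 0 of 11 windows of the 15 largest falls, and in 5.82% of all 32851 windows. With a further G in front they occurred in 1 of the 14, that of Cxcl2, and in 1.63% of all windows. Other motifs were searched too, and those described were chosen after the matches were seen. AP-1 letters (TGANTCA) occurred in 0 of 14 windows of rises, 2 of 11 of falls and 7.81% of all windows. C/EBP letters (TTGCNNAA) occurred in 1 of 14, 3 of 11 and 10.8%, and STAT letters (TTCCNGGAA) in 0, 0 and 1.15%. The Cxcl2 window (chr5:90903649-90903948, plus strand) held 2 NF-kB matches that did not overlap, GGAATTTCC beginning 96 bases and GGCTTTTCC beginning 77 bases upstream of the start. They are in capitals:
Cxcl2: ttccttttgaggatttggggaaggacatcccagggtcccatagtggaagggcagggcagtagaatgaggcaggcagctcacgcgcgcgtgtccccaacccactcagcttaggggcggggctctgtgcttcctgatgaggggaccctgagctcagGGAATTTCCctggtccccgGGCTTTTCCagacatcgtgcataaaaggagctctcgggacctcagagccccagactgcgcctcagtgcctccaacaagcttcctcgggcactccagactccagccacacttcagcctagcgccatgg
A match is a run of letters and was not tested as a binding site.

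**Figure D1:**
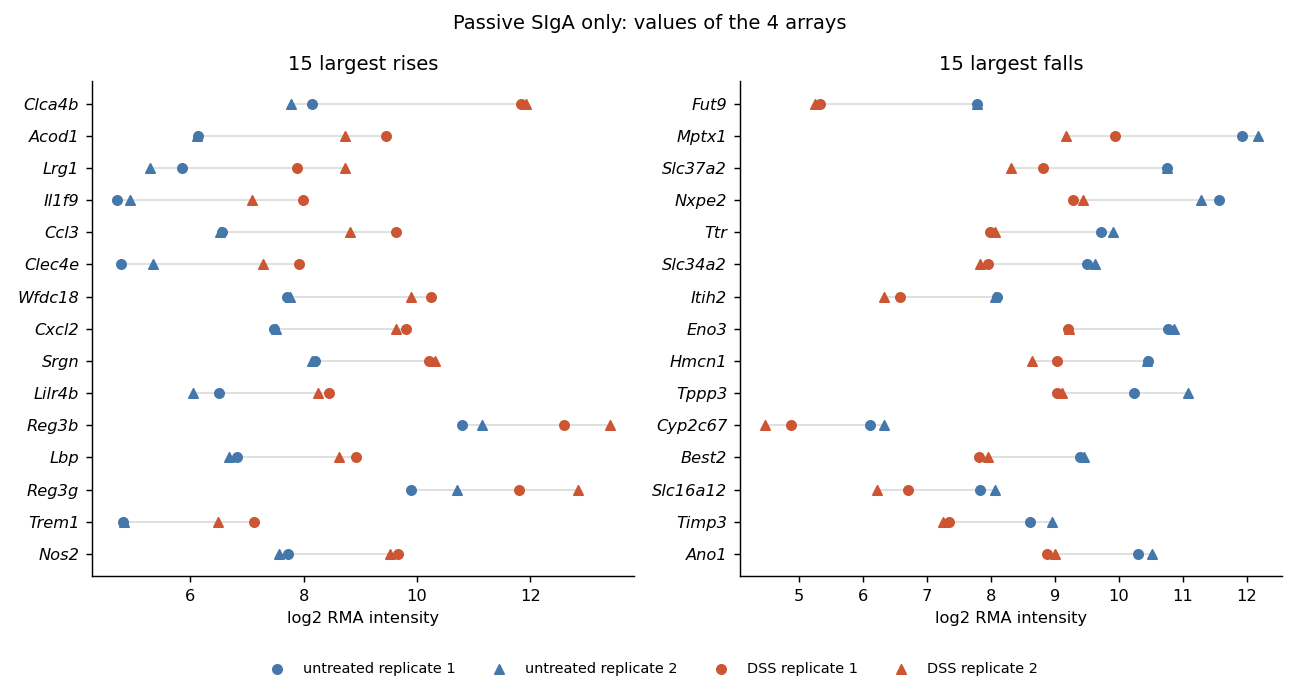
Log2 intensity (x axis) of the 15 genes with the largest rises (left) and the 15 with the largest falls (right) in the 4 arrays with passive SIgA only; blue marks untreated and orange DSS pools, circles replicate 1 and triangles replicate 2. In each of the 30 genes both DSS pools lie on the same side of both untreated pools, which the choice of genes required, and DSS pools differ most from each other for Il1f9 (7.98 and 7.09) and Reg3g (11.79 and 12.84).

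Markers of neutrophils rose in the same arrays. Of 23 measured, 13 rose and none fell, with a median of 1.01, and their mean level went from 5.88 and 5.84 untreated to 7.06 and 6.72 after DSS. The count was 9 without untreated replicate 1, 6 without untreated replicate 2, 5 without DSS replicate 1 and 12 without DSS replicate 2. Trem1, a receptor that amplifies inflammation in neutrophils and monocytes, stood at 4.82 and 4.83 untreated and at 7.13 and 6.48 after DSS (1.98 ± 0.29). Clec4e, a receptor for mycobacterial and fungal glycolipids, rose from 4.78 and 5.35 to 7.91 and 7.28 (2.53 ± 0.32). Cxcr2, the receptor for Cxcl2, rose from 4.41 and 4.51 to 6.55 and 5.89 (1.76 ± 0.23), and Retnlg rose by 1.78 ± 0.20. S100a8, a calcium-binding protein abundant in neutrophils, rose from 5.46 and 5.52 to 7.35 and 6.85 (1.61 ± 0.18). Srgn, which encodes the granule proteoglycan serglycin, rose from 8.20 and 8.14 to 10.21 and 10.31 (2.09 ± 0.24). Lilr4b, a receptor of myeloid cells with a near copy, rose by 2.06 ± 0.32. Trem1 did not pass without DSS replicate 1, nor Lilr4b without untreated replicate 2 or DSS replicate 1. Markers of granules made early in the bone marrow changed little: Mpo stood at 6.12 and 6.13 untreated and at 6.21 and 6.08 after DSS, and Elane at 6.36 and 6.14 and at 6.42 and 6.20. Much of the list lay near background. Above the 95th percentile of the receptor genes (6.09 to 6.42) lay 3 of the 23 markers in all 4 arrays, and 6 in none. Untreated Trem1, Clec4e, Cxcr2 and S100a8 lay under it, so the sizes of their differences are uncertain. Mpo and Elane lay near this percentile in all 4 arrays, so their small differences say little of those granules. Fewer or more cells of a type and less or more RNA per cell cannot be told apart in such bulk RNA, and the part of neutrophil RNA in the rises of shared genes such as Clec4e was not tested.

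In the monocyte and macrophage list, 5 of 26 genes rose, 0 fell and the median was 0.36, and their mean level went from 6.09 and 6.03 to 6.48 and 6.38. Tyrobp, an adaptor of activating receptors, stood at 6.21 and 6.52 untreated and at 7.39 and 7.48 after DSS (1.07 ± 0.22). Fcer1g (0.83 ± 0.18), Cybb (0.95 ± 0.22), Cd14 (0.78 ± 0.16) and Itgam (0.69 ± 0.13) were the others. The count was 0 without untreated replicate 1 or DSS replicate 1 and 1 without either of the other 2 arrays. Acod1, whose product makes itaconate in activated macrophages, stood at 6.14 and 6.12 untreated and at 9.46 and 8.72 after DSS (2.96 ± 0.36, limma adjusted p = 0.000868). Il5ra, the interleukin 5 receptor subunit of eosinophils and B cells, was the one of 14 mast cell and eosinophil markers to pass, at 4.81 and 4.77 untreated and 6.38 and 5.89 after DSS (1.34 ± 0.16). In all 4 arrays it lay under the 95th percentile of the receptor genes, so the size of its difference is uncertain. None of 22 T cell, 20 B and plasma cell, 18 endothelial or 13 neuron and glia markers passed by limma, and their medians lay between 0.00 and 0.09. Fbln1 alone of 24 fibroblast genes rose (0.63 ± 0.13), and its call was lost whichever array was omitted.

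The largest falls came from genes of varied roles. Fut9, a fucosyltransferase that builds the Lewis x glycan, stood at 7.79 in both untreated pools and at 5.34 and 5.25 after DSS (-2.49 ± 0.24, limma adjusted p = 0.000131), below that percentile of the receptor genes. The 2 groups lay far apart with almost no spread inside either. Mptx1, a mucosal pentraxin, fell from 11.92 and 12.17 to 9.94 and 9.18 (-2.49 ± 0.41, limma adjusted p = 0.00647). It did not pass without untreated replicate 1, untreated replicate 2 or DSS replicate 2. Slc37a2, a sugar phosphate exchanger, had the smallest p of the leading genes and went from 10.76 and 10.75 to 8.82 and 8.31 (-2.20 ± 0.15, limma adjusted p = 2.5e-05). Nxpe2 fell from 11.56 and 11.28 to 9.28 and 9.44 (-2.06 ± 0.20). Ttr, the thyroid hormone carrier transthyretin, fell from 9.72 and 9.91 to 7.99 and 8.07 (-1.78 ± 0.21). Slc34a2, a sodium phosphate cotransporter, fell from 9.51 and 9.63 to 7.96 and 7.83 (-1.68 ± 0.27), a call lost without untreated replicate 2 or DSS replicate 2. Timp3, an inhibitor of metalloproteinases, fell from 8.61 and 8.96 to 7.35 and 7.26 (-1.48 ± 0.18), and Itih2, a heavy chain of the inter-alpha-trypsin inhibitor, from 8.10 and 8.07 to 6.59 and 6.34 (-1.62 ± 0.20). Slc16a12 (-1.48 ± 0.25) and the cytochrome Cyp2c67 (-1.54 ± 0.28), which has near copies, complete the 15 largest falls with genes described in the next paragraphs; neither passed without untreated replicate 2 or DSS replicate 2. Tppp3, a tubulin-binding protein, differed more between untreated pools, at 10.23 and 11.08, than between DSS pools, at 9.04 and 9.11 (-1.58 ± 0.24). Of 37 absorptive colonocyte markers, 10 fell and none rose, with a median of -0.13. The others past the test were Naaladl1, Aqp8, Trpm6, Slc20a1 and Mep1a, between -1.22 and -0.62. The count was 5 without untreated replicate 1, 3 without untreated replicate 2 and 6 without either DSS replicate.

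Channels and pumps for salt and water fell in the same arrays. Ano1, a calcium-activated chloride channel, stood at 10.30 and 10.52 untreated and at 8.88 and 9.01 after DSS (-1.47 ± 0.13, limma adjusted p = 8.2e-05). Best2, an anion channel of goblet cells, went from 9.39 and 9.45 to 7.82 and 7.96 (-1.53 ± 0.18). Scnn1a, a subunit of the epithelial sodium channel, fell from 10.21 and 10.31 to 9.18 and 9.35, a 1.99-fold difference. The water channel Aqp8 fell from 11.64 and 11.79 to 10.50 and 10.84 (-1.04 ± 0.20), and the proton pump subunit Atp12a from 10.59 and 10.34 to 9.06 and 9.66 (-1.10 ± 0.26). Car2, a carbonic anhydrase, fell by 0.65 ± 0.12 and Hsd11b2, which protects the mineralocorticoid receptor from glucocorticoids, by 0.62 ± 0.10. Of 36 ion and water transport genes, 7 fell and 2 rose, with a median of -0.27; the rises were Clca4b and the carbonic anhydrase Car12 (0.57 ± 0.13). The count of 9 became 4 without either untreated replicate, 3 without DSS replicate 1 and 8 without DSS replicate 2.

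Enzymes that finish surface glycans changed in both directions. Of 40 glycosyltransferases, 6 fell and 2 rose, with a median of -0.01. Besides Fut9, the falls were the sialyltransferases St3gal6 (-0.90 ± 0.15), St3gal4 (-0.60 ± 0.12) and St6gal1 (-0.54 ± 0.13), B4galnt3 (-0.69 ± 0.10) and Fut4 (-0.58 ± 0.10), whose product can build the Lewis x glycan as well. Fut2, which adds the fucose of the H antigen used by gut bacteria, rose from 11.51 and 11.32 to 12.08 and 12.15 (0.70 ± 0.13), and B3galt5 rose by 0.55 ± 0.12. St3gal6 showed little spread, at 10.59 and 10.51 untreated and 9.77 and 9.53 after DSS. Between 2 and 4 of the 8 calls were left when any 1 of the arrays was omitted (2 without untreated replicate 2, 3 without untreated replicate 1 or DSS replicate 2, 4 without DSS replicate 1).

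Detoxification and lipid genes that passed mostly fell. Of 49 xenobiotic genes, 5 fell and none rose: the glutathione transferases Gstm1 (-0.92 ± 0.16), Gstm3 (-0.86 ± 0.18) and Gstt1 (-0.65 ± 0.15), the sulfotransferase Sult1a1 (-0.81 ± 0.16) and Cyp2s1 (-0.54 ± 0.13). Gstm1 and Gstm3 are near copies and may share signal. None of the 5 was left without untreated replicate 1, untreated replicate 2 or DSS replicate 1, and 3 were left without DSS replicate 2. Scd1, which desaturates fatty acids, was the one of 23 sterol and lipid synthesis genes to pass, from 9.24 and 9.22 to 7.64 and 8.23 (-1.29 ± 0.22), and none of that list passed without untreated replicate 1, untreated replicate 2 or DSS replicate 1. In the fatty acid oxidation list of 30, Acadl rose (0.65 ± 0.14) and the mitochondrial coactivator Ppargc1a fell (-0.69 ± 0.15). Ppargc1a was also the one of 24 oxidative phosphorylation genes to pass. Neither passed when any 1 of the 4 arrays was omitted.

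Crypt, growth and stress genes changed singly. Lgr5, a receptor that marks crypt stem cells, stood at 8.32 and 8.41 untreated and at 7.21 and 7.36 after DSS (-1.08 ± 0.17, limma adjusted p = 0.00595). Ephb3 (-0.77 ± 0.14) and Smoc2 (-0.62 ± 0.13) fell and Prom1 rose (0.58 ± 0.13), among 25 crypt stem genes with a median of -0.19. These 4 calls became 1, 0, 0 and 3 without untreated replicate 1, untreated replicate 2, DSS replicate 1 and DSS replicate 2. The cyclin Ccnd1 rose (0.74 ± 0.12) as the one of 35 cell cycle genes to pass, though not without untreated replicate 1 or DSS replicate 1, while 33 of the 35 differences were positive with a median of 0.19. In the unfolded protein response list of 29, Sdf2l1 (0.77 ± 0.13), Hyou1 (0.49 ± 0.11) and the asparagine synthetase Asns (0.81 ± 0.18) rose, with a list median of 0.26, and at most 1 of them was left without any 1 array. Of 29 hypoxia and glycolysis genes, hexokinase Hk2 (0.61 ± 0.12), the lactate exporter Slc16a3 (0.71 ± 0.12) and Ero1a (0.70 ± 0.13) rose and the enolase Eno3 fell, from 10.77 and 10.86 to 9.21 and 9.23 (-1.60 ± 0.14); 1 of these 4 calls was left without either untreated replicate, 2 without DSS replicate 1 and 3 without DSS replicate 2. Of 33 wound repair genes, the plasminogen activator Plat (1.23 ± 0.20), Mmp9 (1.05 ± 0.19) and the integrin Itga2 (0.72 ± 0.15) rose, and 0 to 2 were left without any 1 array. Hmcn1, which encodes the matrix protein hemicentin, fell from 10.45 and 10.44 to 9.04 and 8.65 (-1.60 ± 0.19) and was the one of 15 smooth muscle and matrix genes to pass. This is the brightest of its 77 probe sets; 66 of the 77 were lower after DSS, with a median difference of -0.87 and a range of -1.69 to 0.35.

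None of 21 goblet cell markers passed by limma, with a median of -0.04, and Retnlb came nearest at an adjusted p of 0.0573. Among 24 enteroendocrine genes, Tac1, the precursor of substance P, rose from 7.66 and 8.12 to 9.89 and 9.61 (1.86 ± 0.35), Cpe rose (0.78 ± 0.14), and Ddc, an enzyme of serotonin synthesis, fell (-0.85 ± 0.17). At most 1 of these 3 passed without any 1 array. None of 16 tuft cell, 26 junction, 16 circadian clock, 12 heat shock, 11 MHC class I or 6 sex-linked genes passed by limma. Of 12 genes in the IgA transport and signalling list, Ptk6, an epithelial tyrosine kinase, rose from 7.51 in both untreated pools to 9.27 and 9.04 (1.64 ± 0.22), and Vnn1, a pantetheinase, from 7.44 and 7.34 to 8.38 and 8.68 (1.14 ± 0.13). Both still passed when any 1 array was omitted, and neither gene is known to transport IgA. Among 20 enzymes of inflammatory mediators, Ptgs2 (1.52 ± 0.31), Acod1 and Hdc (1.01 ± 0.15) rose and the prostaglandin-degrading Hpgd fell (-0.58 ± 0.13). Of 33 pattern recognition genes Clec4e, Clec4d (1.31 ± 0.22) and Cd14 rose, and of 25 immediate early genes Ier3 rose (0.74 ± 0.14) and Nr4a1 fell (-0.66 ± 0.15). Counts in these last 3 lists, 4, 3 and 2, ran between 1 and 4, 1 and 2, and 0 and 1 when 1 array was omitted.

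**Figure D2:**
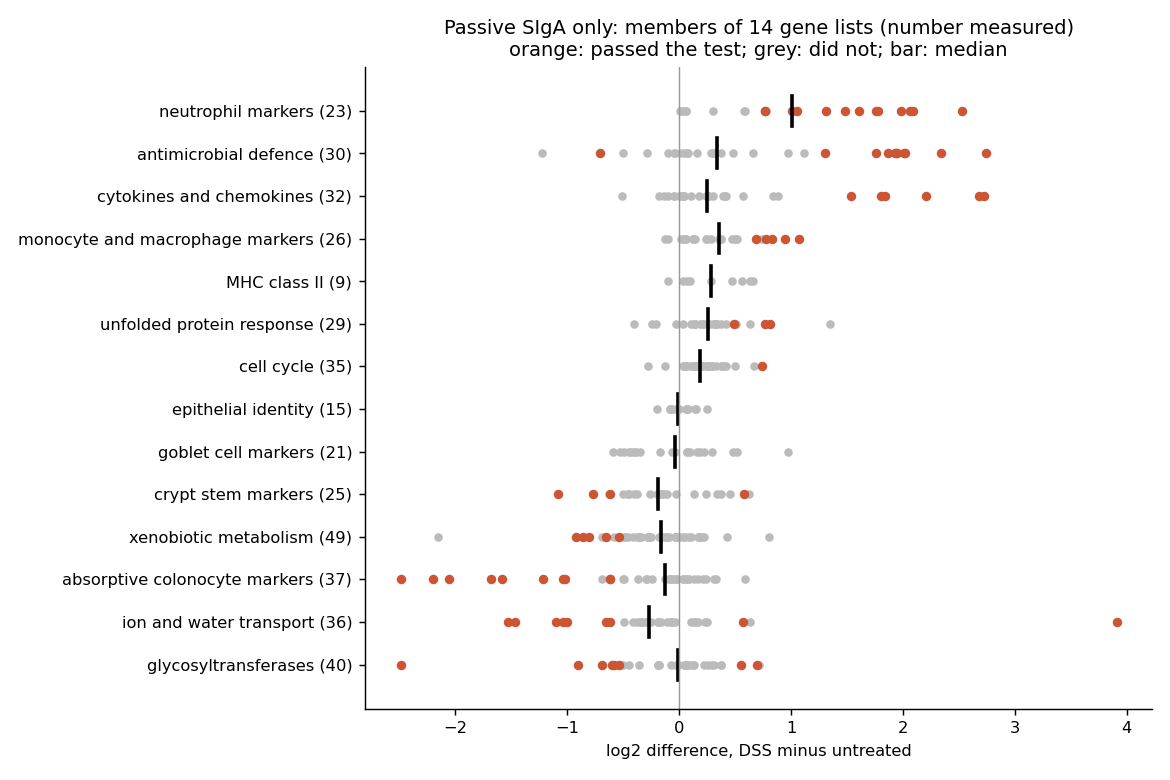
Log2 difference of DSS minus untreated (x axis) for every measured member of 14 gene lists in mice with passive SIgA only; orange points passed the limma test, grey points did not, and black bars are list medians. Neutrophil markers have the highest median (1.01), with 13 of 23 past the test, while ion and water transport has a median of -0.27 and MHC class II has no member past the test.

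Interferon-stimulated genes were uneven between the untreated pools. The mean of 26 such genes was 8.17 in untreated replicate 1 and 7.58 in untreated replicate 2, against 8.17 and 8.09 after DSS. Ifit1 stood at 8.81 and 7.33 untreated and at 8.10 and 8.13 after DSS, and Oasl2 at 10.02 and 8.45 and at 9.45 and 9.57, so that the DSS pools lay between the untreated pools. Irf8, a transcription factor of myeloid cells, was the one gene of the list to pass, at 9.13 and 8.87 untreated and 9.65 and 9.63 after DSS (0.64 ± 0.13), and its call was lost whichever array was omitted. The same list averaged 7.76 and 8.38 in the untreated pools with neither SIgA source.

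Antigen presentation genes of MHC class II, by which a cell displays peptides to helper T cells, did not pass in these mice. Cd74, the invariant chain that guides class II molecules, stood at 8.44 and 8.82 untreated and at 8.93 and 9.46 after DSS, a difference of 0.56 ± 0.33 (limma adjusted p = 0.602). DSS pools lay above untreated pools, by little. H2-Ab1 stood at 7.82 and 8.05 and at 8.36 and 8.78 (0.63 ± 0.22), and H2-Aa at 7.69 and 8.47 and at 8.48 and 8.99 (0.66 ± 0.28). H2-Eb1 had 0.47 ± 0.13 and H2-DMa 0.28 ± 0.16. The median over 9 class II genes was 0.28, and 0 passed. For Cd74 the DSS effect was 1.76 with neither SIgA source, 2.02 with active SIgA only and 2.80 with both. Retnlb, a resistin-like protein that goblet cells secrete, showed a like order: 0.97 ± 0.24 here (limma adjusted p = 0.0573), and 2.24, 2.66 and 2.78 in those groups.

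The smaller difference went with a higher starting level. The same untreated pools enter both, so the starting level is not separate evidence on the difference. Untreated Cd74 was 8.44 and 8.82 with passive SIgA only and 6.30 to 7.32 in the other 6 untreated pools. Untreated Retnlb was 10.25 and 10.62 here and 8.41 to 9.33 in the other 6. H2-Ab1 (7.82 and 8.05, against 6.41 to 7.21), H2-Eb1 (7.74 and 7.91, against 7.16 to 7.38) and H2-Aa (7.69 and 8.47, against 6.78 to 7.58) lay above all 6 as well, with no overlap. H2-DMa met the others at its lower pool (6.99 and 7.39, against 6.21 to 6.99). The share of all genes that lie above all 6 was not counted, so the lack of overlap cannot be read as a trait of these genes. By limma, 18.3% of all genes had an unadjusted p under 0.05 for the untreated level against the mean of the other 3 groups. After DSS the level with passive SIgA only, minus the mean of the other 3 groups, was 0.27 for Cd74 and 0.05 for Retnlb. The DSS pools of H2-DMa (7.39 and 7.54) still lay above those with neither SIgA source (7.19 and 7.29) and with active SIgA only (6.99 and 7.32), and those of H2-Eb1 (8.24 and 8.34) lay below those with both (8.52 and 8.62).

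A contrast chosen after these values were seen set the untreated level with passive SIgA only against the mean of the other 3 untreated groups. It gave 1.90 ± 0.27 for Cd74 (limma adjusted p = 0.0137), 1.64 ± 0.19 for Retnlb (adjusted p = 0.0114) and 1.08 ± 0.18 for H2-Ab1 (adjusted p = 0.0327), while H2-Aa (1.04 ± 0.23), H2-Eb1 (0.52 ± 0.11) and H2-DMa (0.55 ± 0.13) did not pass. In all 86 genes passed, 0.431% of those tested, 36 higher (0.181%) and 50 lower (0.251%), and 41 of the 50 were receptor and keratin-associated genes. Without the untreated group with both SIgA sources, 2 genes passed, with Retnlb at 1.64 (adjusted p = 0.0487) and Cd74 at 1.81 (adjusted p = 0.112). None passed without either untreated replicate, when Cd74 stood at 2.09 (adjusted p = 0.169) without replicate 1 and 1.71 (adjusted p = 0.31) without replicate 2, and Retnlb at 1.82 and 1.45. Each size without 1 replicate is that of the pool that remained, and both pools were known to be high when the contrast was chosen. Those sizes add no support beyond the values of the pools, and the calls were lost. The counterpart contrast after DSS gave 3 genes (0.015%): Slc37a2 (-0.91 ± 0.12, adjusted p = 0.0241) and Pigr were lower with passive SIgA only (0.01%), and G530011O06Rik was higher (0.00502%). For Pigr, the mean of the others includes the Pigr+/- offspring. None of these 3 genes passed without DSS replicate 2, when 2 others did, 1 of the 3 was left without DSS replicate 1 and 2 without either untreated replicate, and none passed when all probe sets were tested.

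Markers of some cells known to carry class II overlapped the other groups in the untreated pools. The mean of the 9 class II genes was 7.50 and 7.68, against 6.87 to 7.38 in the other 6 untreated pools. Over the same pools the 26 monocyte and macrophage markers averaged 6.03 to 6.09 here and 5.98 to 6.31 in the others, and the 20 B and plasma cell markers 5.98 to 6.15 here and 5.99 to 6.50. Of the 26 and the 20, 7 and 6 lay above the receptor percentile in all 4 arrays with passive SIgA only. In none of those arrays did 13 and 11 lie above it, so these means sit near background and say little of cell content. Of all 38 lists, 4 averaged higher in both untreated pools with passive SIgA only than in all 6 other untreated pools and none lower. Besides class II they were the cell cycle list (8.65 and 8.73, against 8.19 to 8.46), antimicrobial defence (8.05 in both, against 7.81 to 7.97) and enteroendocrine genes (7.34 and 7.38, against 7.14 to 7.32). The part of these lists in the class II level was not tested. Ciita, the master regulator of class II transcription, stood at 6.28 and 6.32 untreated and at 6.38 and 6.36 after DSS, near the receptor percentile.

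Promoters of class II genes are shown because such genes are known for a shared set of boxes close to the start, among them the Y box bound by the factor NF-Y. In the RefSeq windows of GRCm38.p6, the Y box letters CTGATTGG were searched on both strands. Of 4 windows found for 3 class II genes they were present in 2, those of H2-Aa and H2-Eb1, and not in H2-DMa; H2-Ab1 had no entry. They occurred in 0 of the 14 windows of the largest rises, in 1 of 11 windows of the largest falls (Hmcn1), and in 4.1% of all windows. The windows were chosen after the values were seen. In H2-Aa (chr17:34287774-34288073, minus strand) the match, in capitals, began 51 bases upstream of the start, and in H2-Eb1 (chr17:34305617-34305916, plus strand) 62 bases upstream:
H2-Aa: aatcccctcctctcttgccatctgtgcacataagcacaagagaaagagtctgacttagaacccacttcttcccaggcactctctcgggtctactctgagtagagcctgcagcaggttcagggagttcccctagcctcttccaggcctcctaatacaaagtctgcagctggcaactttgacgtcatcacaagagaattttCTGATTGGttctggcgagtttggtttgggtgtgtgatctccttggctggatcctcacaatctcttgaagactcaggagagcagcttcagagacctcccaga
H2-Eb1: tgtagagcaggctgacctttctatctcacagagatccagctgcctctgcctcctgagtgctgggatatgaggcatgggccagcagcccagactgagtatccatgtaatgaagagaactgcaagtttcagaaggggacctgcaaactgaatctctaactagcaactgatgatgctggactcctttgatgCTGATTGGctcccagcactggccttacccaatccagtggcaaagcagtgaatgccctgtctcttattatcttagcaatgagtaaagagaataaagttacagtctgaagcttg

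**Figure D3:**
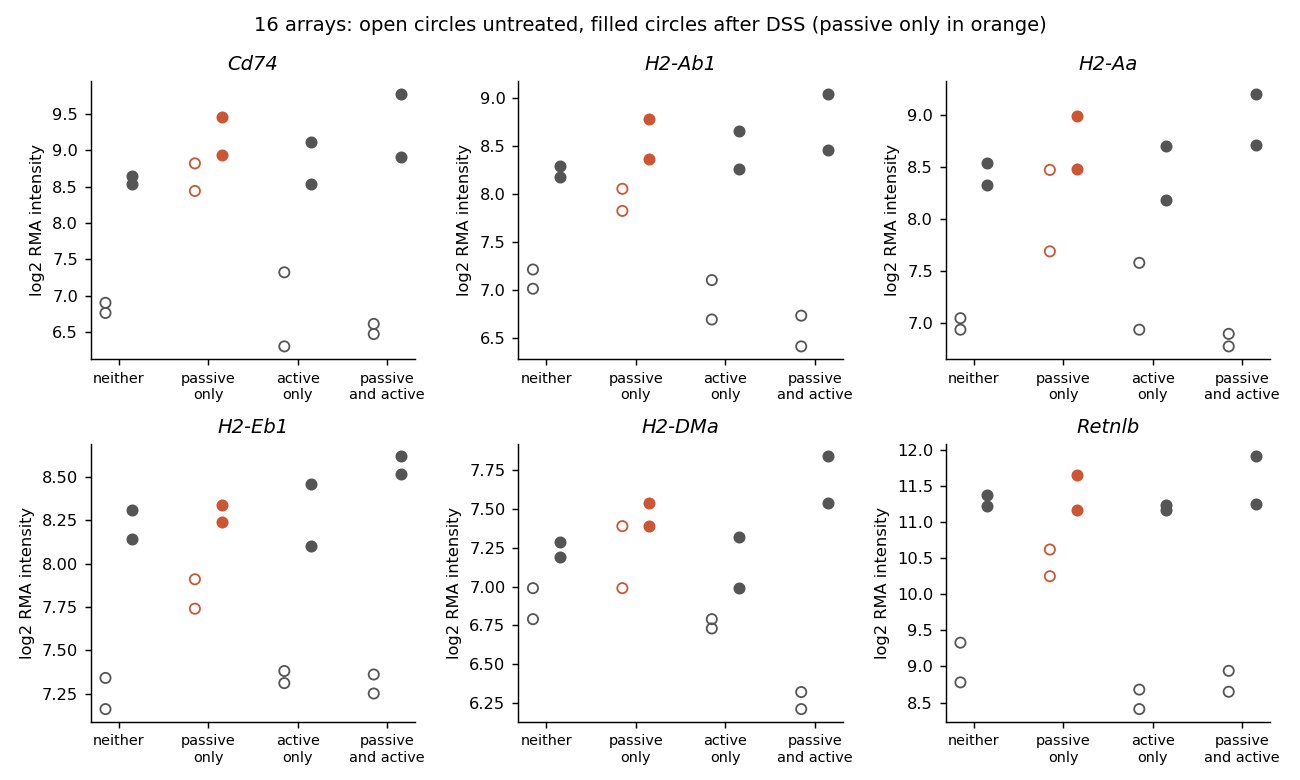
Log2 intensity (y axis) of 5 MHC class II genes and Retnlb in all 16 arrays by SIgA exposure (x axis); open circles are untreated pools, filled circles DSS pools, and passive SIgA only is in orange. Untreated Cd74 with passive SIgA only (8.44 and 8.82) lies above the 6.30 to 7.32 of the other untreated pools, and its DSS pools with passive SIgA only (8.93 and 9.46) lie inside the 8.54 to 9.78 of the other DSS pools.

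The next question was how far this response matched that of mice with other SIgA exposure. The 4 DSS effects share no array, though they share the estimate of spread. Of the 178 rises, 71 (39.9%) also rose with neither SIgA source, which is 72.4% of the 98 rises there (0.492% of genes tested). The same number, 71, rose with active SIgA only, 57.3% of the 124 there (0.622%), and 123 (69.1%) with both sources, 17.3% of the 709 there (3.56%). Of the 216 falls, 61 (28.2%) fell with neither source, 48.8% of the 125 there (0.627%). With active SIgA only 65 fell (30.1%; 86.7% of 75 there, 0.376%), and with both sources 107 (49.5%; 8.22% of 1302 there, 6.53%). In all 3 other groups 54 of the rises and 31 of the falls passed in the same direction. Clca4b rose by 3.22, 3.65 and 3.95 with neither source, active SIgA only and both, beside 3.91 here, and Il1f9 by 2.70, 2.73 and 2.80 beside 2.72. The untreated pools that stood apart enter the counts with both sources.

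No gene's DSS effect differed from that with neither SIgA source, in mice of the same genotype whose dams differed, at an adjusted p under 0.05 by limma (0 of 19938; 851 genes, 4.27%, had an unadjusted p under 0.05). Nor did any differ from active SIgA only (0; 1155, 5.79%, unadjusted) or from the mean of the other 3 groups (0; 1609, 8.07%, unadjusted). The median SE of a difference between 2 groups was 0.21, and of the difference from the mean of 3 was 0.17. On simulated data with 50 genes changed at each size, the comparison with neither source recovered 6% of differences of 0.5 log2 and 62% of 1 log2. It recovered 98% of 1.5 log2 and 100% of 2 log2. That many changed genes ease the adjusted threshold, and the real comparison had 0 calls, so the larger shares need not hold for it. Most differences of 0.5 log2 would have been missed, and larger ones may have been.

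Some differences were sizeable without passing. Against the mean of the other 3 groups, the unnamed gene G530011O06Rik came nearest to passing, at 1 ± 0.13 (limma adjusted p = 0.0728). With unnamed, small RNA and receptor genes left aside, Retnlb had the smallest p, at -1.58 ± 0.27 (95% interval -2.18 to -0.99, limma adjusted p = 0.16). Cyp4b1, a fatty acid hydroxylase, stood at 8.43 and 8.27 untreated and at 8.22 and 8.26 after DSS, so that the untreated pools lay just above the DSS pools. Its effect was -0.11 here and -1.74, -1.32 and -0.95 with neither source, active SIgA only and both, a difference from their mean of 1.22 ± 0.22 (95% interval 0.74 to 1.71, adjusted p = 0.207). Pros1, the anticoagulant protein S, stood at 7.11 and 6.91 untreated and at 6.03 and 5.81 after DSS (-1.09 ± 0.15), with effects of 0.06, -0.22 and -0.36 elsewhere (difference -0.91 ± 0.17, adjusted p = 0.22). Ptk6 had 1.64 here, 0.10 with neither source, 1.22 with active SIgA only and 1.80 with both (difference from neither 1.54, adjusted p = 0.478). Fut9 had -2.49 here and -1.02, -1.47 and -1.16 elsewhere (difference -1.28 ± 0.27, 95% interval -1.87 to -0.68, adjusted p = 0.306). By the brightest of its 77 probe sets, Hmcn1 had -1.60 against -0.24, -0.91 and -0.27 (difference -1.12 ± 0.22, adjusted p = 0.22). Srgn was 2.09 against 3.28, 3.37 and 3.22 (difference -1.20 ± 0.28, adjusted p = 0.369). None of these passed.

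Against mice with both SIgA sources, of the same dams but Pigr+/- themselves, 481 genes differed (2.41%), 450 with a higher (2.26%) and 31 with a lower effect (0.155%) here. Of the 481, 357 were receptor and keratin-associated genes, whose level stood apart in the untreated pools with both sources. The fit cannot give this difference without those pools. Cd74 (-2.24 ± 0.47, limma adjusted p = 0.0244), Retnlb (-1.81 ± 0.34, adjusted p = 0.0135) and H2-Ab1 (-1.55 ± 0.31, adjusted p = 0.0193) had lower effects here. The 481 became 237 and 170 without untreated replicates 1 and 2, 158 without DSS replicate 1 and 370 without DSS replicate 2, and 6 without the dimmest 30% of genes.

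**Figure D4:**
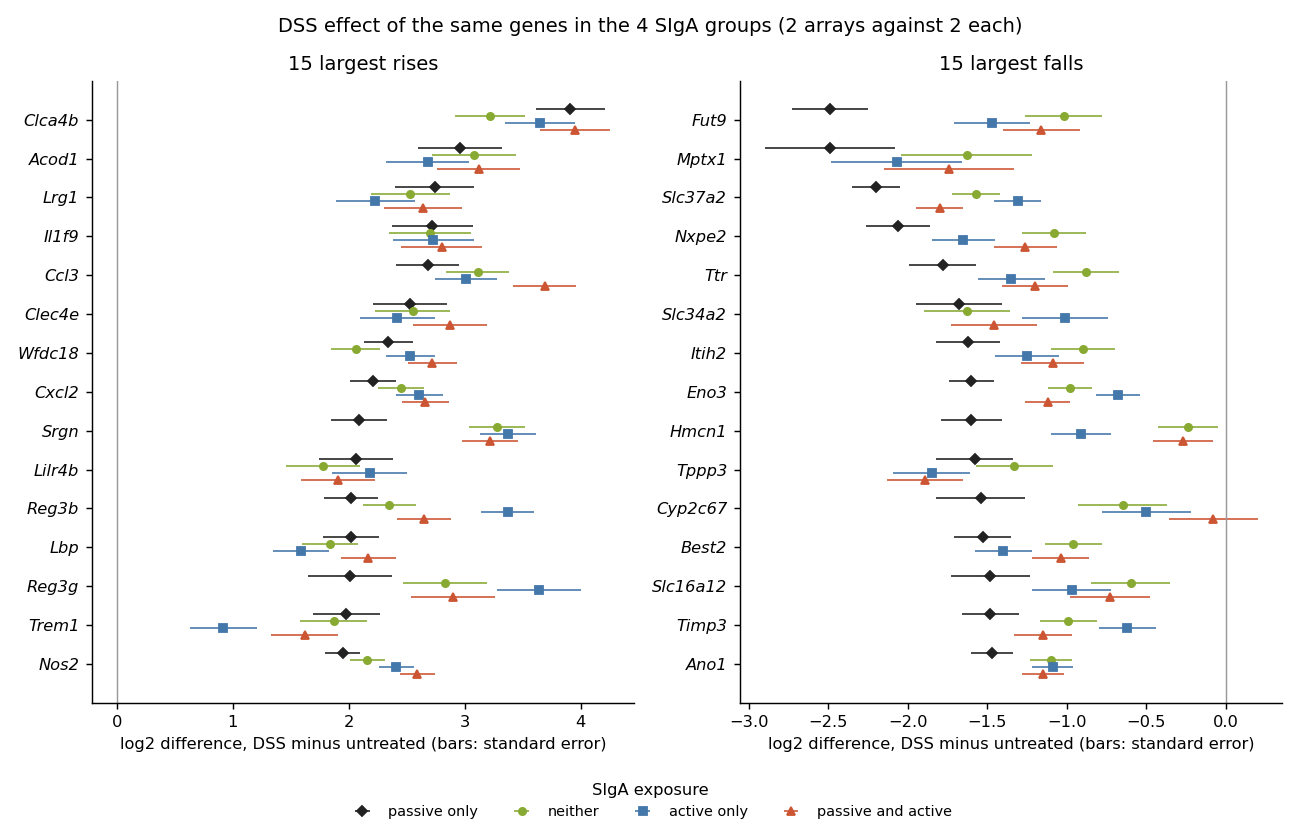
DSS effect (x axis, log2 difference of DSS minus untreated with its standard error) of the 15 largest rises (left) and falls (right) with passive SIgA only, in each of the 4 SIgA groups of 2 arrays against 2. The genes were chosen by their values with passive SIgA only (black diamonds), which favours larger values there; Srgn is lower here (2.09) than in the other groups (3.22 to 3.37), a difference that did not pass the test.

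Genes past the test here and in no other group numbered 140, of which 111 had the same sign in all 3. A call in one group alone does not show a difference, and against the mean of the other groups none passed. The following were chosen from the 140 after their values were seen. Casp14, a caspase of cornifying epithelium, fell from 8.19 and 8.39 to 7.21 and 6.89, and Hoxd10, a positional transcription factor, from 7.73 and 8.02 to 6.88 and 6.81. Bmp2, a signal of the differentiated upper crypt, fell from 9.21 and 9.46 to 8.51 and 8.37, and Npy1r, a neuropeptide Y receptor, from 7.18 and 7.21 to 5.99 and 5.82. Ctps, which makes CTP, rose from 6.61 and 6.58 to 7.57 and 7.58, Psat1, of serine synthesis, from 6.91 in both pools to 7.80 and 7.56, and Srm, the spermidine synthase, from 9.43 and 9.58 to 10.22 and 10.16. In each of these genes the untreated and DSS pools did not overlap, as in all 394 genes past the test, so this adds nothing to the call. Of all genes tested, 24.3% lay so upward and 18.7% downward.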

How the data were processed

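RNA of colonic epithelial cells was measured on 16 Affymetrix whole-transcript arrays, 2 in each of 8 groups. The deposited values are log2 intensities that the authors made with RMA, per the submitters' processing notes (the version: not given in the sources used here). Of 35557 probe sets, 21789 named 1 gene, 1621 several and 12147 none in the platform annotation. Only the first kind was used, with symbols updated through RefSeq (21698 matched) and the brightest probe set taken for each of 999 genes with more than 1, which left 19938 genes.

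A mean per group was fitted to all 16 arrays with limma 3.58.1 in R 4.3.3 (8 residual and 5.03 prior degrees of freedom), two-sided, with Benjamini-Hochberg adjustment over all genes and calls at an adjusted p under 0.05. Errors are standard errors. Tested on simulated data with 50 genes changed at each size, the DSS effect recovered 24% of changes of 0.5 log2 and 92% of changes of 1 log2. The number of arrays limits the precision. The members and the 38 gene lists were chosen with earlier results of these data known. Named genes were the 15 largest rises and falls past the test, 8 per direction (or the 3 smallest p) for each difference of DSS effects, up to 5 members of each list with the smallest p, and Pigr, with unnamed, small RNA and receptor genes left aside; other members of lists and the class II levels were named after their values were seen. Contrasts, of untreated levels and of levels after DSS, were added after the values were seen. Alternatives changed the prior variance, moderation, scaling, dim genes, probe sets and arrays fitted. Replicate numbers were not treated as pairs: the differences between numbered pools correlated at 0.275 between untreated and DSS mice with passive SIgA only, and from -0.301 to 0.666 over 28 pairs of groups.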

Additional observations from a re-analysis of the deposited data

Results flagged for a closer look

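For 19 of the named genes, the DSS effect with passive SIgA only differed from that with both SIgA sources. The test was limma's, of the difference, at an adjusted p under 0.05. All but H2-Eb1, Cox4i1 and Nyx met a naming rule that required passing this same test, so the count was largely fixed by that choice. Over all genes tested, 481 (2.41%) passed. The untreated pools with both sources, which stood apart, enter every one of these differences, and none could be computed without them. The effect was lower with passive SIgA only for Cd74 (-2.24), Retnlb (-1.81), H2-Ab1 (-1.55), Snrpb2 (-1.44), Ttpa (-1.37), Hmcn1 (-1.32), H2-DMa (-1.15), Nfyb (-1.15) and H2-Eb1 (-0.80). It was higher for Zfp600 (2.72), Defb4 (1.89), Prl3d3 (1.86), Cyp2c39 (1.76), Retnla (1.73), Zfp980 (1.64), Mup5 (1.61), Mucl2 (1.56), Nyx (1.40) and Cox4i1 (0.77).

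Of the genes with a higher effect, Zfp600 stood at a mean of 5.61 in the untreated pools with both sources and 2.92 in those with passive SIgA only, and its DSS effect was -2.98 and -0.26. Defb4 stood at 5.71 and 4.17, with DSS effects of -1.84 and 0.04, and Mup5 at 5.56 and 3.91, with effects of -1.75 and -0.13. In all 4 arrays with passive SIgA only, Zfp600, Defb4, Mup5, Prl3d3, Cyp2c39, Retnla, Zfp980 and Mucl2 lay under the 95th percentile of the chemosensory receptor and keratin-associated genes. Of the genes with a lower effect, Cd74 stood at 6.54 and 8.63 in those untreated pools and H2-DMa at 6.26 and 7.19. By the brightest of its 77 probe sets, Hmcn1 fell by 1.60 with passive SIgA only and stood at -0.27 with both sources.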

How the results depend on the processing

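The 30 leading genes were chosen with no overlap of pools, so omitting 1 array could not change their direction. Nor could alternatives that left the values unaltered. These genes kept their direction under every alternative run that included them (28 of them without the dimmest 30% of genes). All passed except without moderation (24) and without 1 of the 4 arrays (25 to 28). The 394 calls became 107 to 186 when 1 of the 4 arrays was left out, with the pool that remained taken to vary as other groups did; the remaining alternatives gave 275 to 571. With the replicate block 480 genes passed, 393 of them among the 394; the numbers do not establish pairs. The difference from neither SIgA source gave 0 calls under every setting run. The difference from both sources (481) gave 121 without moderation, 741 with arrays centred on their medians, 6 without the dimmest 30% of genes, 1436 over all probe sets and 158 to 370 without 1 array. The difference from the mean of the other groups (0) gave 1 with centred arrays and 285 over all probe sets. The untreated level (86) gave 201 with a trend in the prior variance, 10 without moderation, 313 with the replicate block, 24 without dim genes, 745 over all probe sets, 2 without the untreated pools with both sources, 0 when untreated active only replicate 1 was left out too, and 0 to 28 without 1 array. Zfp600 reversed there, from -0.66 to 0.35 in the fit without 2 arrays and 0.39 in that without 3, and ran from -0.76 without 1 array to 0.39. The level after DSS (3) gave 1 without moderation, 0 over all probe sets and 1 to 2 without 1 array. The cause was not tested. Genes near the level of the chemosensory receptor and keratin-associated genes, such as Il1f9 in untreated pools, have compressed differences.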
